A study of Mus musculus with 24 samples.

Results

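Imatinib was compared with no Imatinib in the lungs of mice that had not been irradiated, with and without a second compound labelled Ly. The 8 arrays of the comparison, of 24 in the whole series, were chosen by their labels: 2 of Imatinib, 2 of Ly+Imatinib, 2 of untreated control and 2 of Ly alone. The difference was fitted over 4 arrays with Imatinib and 4 without, with the presence of Ly as a term. The other 16 arrays carried the compound labelled Su or irradiation, and all lungs were taken at 24 days, a time counted after irradiation. The 2 arrays of a group are biological replicates by the series' description, and the labels used here name no strain, sex, age or dose, nor what Ly and Su stand for. The series as a whole asks how drugs against TGF-beta and PDGF signals alter the lung after radiation. Each array was a single-colour Agilent mouse expression array hybridised with whole lung RNA. Levels are log2 signal minus the array's 75th percentile.

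Imatinib is an inhibitor of tyrosine kinases that blocks ABL, KIT, the PDGF receptors, the CSF1 receptor and the discoidin domain receptors. In the lung the PDGF receptors are carried by fibroblasts, pericytes and smooth muscle, KIT by mast cells and part of the capillary endothelium, and the CSF1 receptor by macrophages and monocytes. The drug acts on the activity of these kinases, which an RNA measurement does not read.

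Between 62.2% and 66.9% of spots were well above background on the 8 arrays, and the 75th percentile of signal ranged from 629 to 1600. The lung genes Sftpc, Sftpb, Ager, Scgb1a1 and Cdh5, which mark alveolar, club and endothelial cells, were well above background on every one of the 8 arrays. Correlations between the 2 replicates of a group, across genes, ranged from 0.983 to 0.992. The untreated and Ly arrays lay on 1 slide, the Imatinib arrays on another together with Su, and the Ly+Imatinib arrays on another together with Ly+Su. Each slide was scanned on its own, so Imatinib and slide cannot be told apart in the comparison with no Imatinib. Imatinib and Su were compared within slides. There the arrays with Imatinib were at positions 1 and 2 and those with Su at positions 3 and 4. Drug and position on the slide thus cannot be told apart in that comparison.

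With Imatinib 4 of 17912 genes rose past the threshold (limma, Benjamini-Hochberg adjusted p under 0.05), which is 0.0223% of the genes tested, and 0 fell. The split depended on the scaling: quantile normalization called 6 higher and 4 lower, and median scaling 4 higher and 4 lower. The 4 genes that rose as reported were Cyp1a1, Pax5, Shisa2 and a cDNA, AK054519, to which no gene name was matched. Cyp1a1 is a cytochrome P450 and a classical target of the aryl hydrocarbon receptor, and Pax5 is the B lineage transcription factor. Shisa2 is of a family known in Xenopus to hold Wnt and FGF receptors in the endoplasmic reticulum. At an unadjusted p under 0.05, 1442 genes (8.05%) were higher and 1049 (5.86%) lower. In 809 genes (4.52%) all 4 Imatinib arrays were above all 4 arrays without it, and in 697 (3.89%) all 4 were below. A fit that drew its spread from all 24 arrays called 104 genes higher (0.581%) and 94 lower (0.525%). Of the 4 genes above, that fit called 2, Cyp1a1 and Pax5, while Shisa2 and AK054519 missed. Shisa2 had an SE of 0.26 there, against 0.09 over the 8 arrays (limma adjusted p = 0.0687 in the fit of all 24).

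Cyp1a1 moved furthest of the 4. Its promoter is shown because the aryl hydrocarbon receptor recognises the core letters GCGTG, set in capitals here. The window runs 250 bases before to 50 after the start of transcription (RefSeq, GRCm38.p6, chr9:57697363-57697662, plus strand). It holds 1 copy, beginning at -54, and 32.4% of 32851 mouse promoter windows of this length hold GCGTG or its complement CACGC.
Cyp1a1: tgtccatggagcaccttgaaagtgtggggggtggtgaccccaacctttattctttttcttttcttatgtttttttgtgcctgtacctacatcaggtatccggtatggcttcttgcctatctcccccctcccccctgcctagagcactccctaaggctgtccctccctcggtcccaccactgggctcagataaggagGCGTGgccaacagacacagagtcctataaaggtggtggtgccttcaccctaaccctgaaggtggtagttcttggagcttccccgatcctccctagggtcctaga
The levels of Cyp1a1 were 1.00 and 0.08 on the Imatinib arrays and -0.51 and -0.27 on the Ly+Imatinib arrays, against -2.53 and -3.44 on the untreated and -3.12 and -3.53 on the Ly arrays. Every Imatinib array was above every array without it, and the lowest of them exceeded the highest array without Imatinib by more than the spread within any group. The difference was 3.23 ± 0.28 (SE, n = 4 against 4), a 9.39-fold higher level (limma adjusted p = 0.0308), with a 95% interval of 2.56 to 3.90 on the log2 scale. It was 2.94 with Ly and 3.53 without Ly.

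The other 3 rose by smaller amounts. Pax5, on chromosome 4, was at -2.14 and -2.18 on Imatinib and -1.08 and -1.31 on Ly+Imatinib arrays, against -3.75 and -3.77 on untreated and -2.52 and -2.29 on Ly arrays. All Imatinib arrays were higher than all others, but the Ly arrays also stood above the untreated ones, and the lowest Imatinib array was only just above the highest Ly array. The difference was 1.40 ± 0.12 (SE), 2.65-fold (limma adjusted p = 0.0253). This probe was designed on the cDNA AK040987. A second Pax5 probe, on the RefSeq transcript, gave a difference of 0.53 and was well above background on 1 Imatinib array and on 0 arrays without it.

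Shisa2, on chromosome 14, was at -1.37 and -1.49 on Imatinib and -0.74 and -0.93 on Ly+Imatinib arrays, against -2.42 and -2.35 on untreated and -2.02 and -1.98 on Ly arrays. The groups did not overlap, and the replicates of each group lay close together. The difference was 1.06 ± 0.09 (SE), 2.08-fold (limma adjusted p = 0.0253). AK054519 was dim, at -5.40 and -5.41 on Imatinib and -4.66 and -4.78 on Ly+Imatinib arrays, against -6.59 and -6.44 on untreated and -5.68 and -5.70 on Ly arrays. It was well above background on 4 Imatinib arrays and on 0 without, so its rise is given as at least 1.09-fold (fitted difference 1.04 ± 0.08, limma adjusted p = 0.0253).

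**Figure D1:**
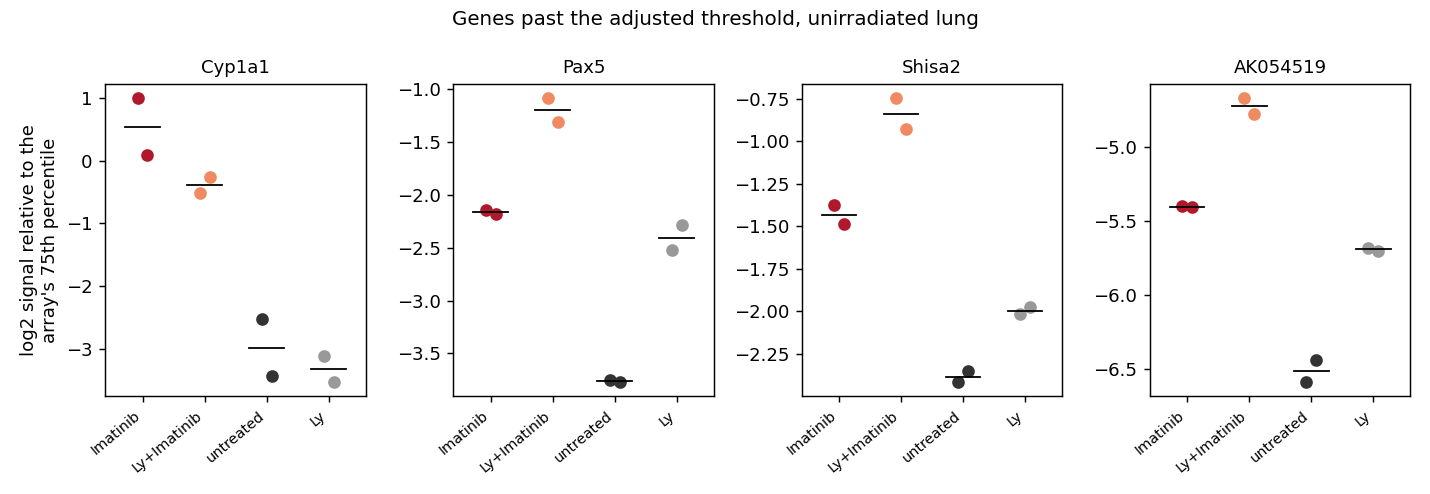
Log2 signal relative to the array's 75th percentile (y axis) of the 4 genes past the adjusted threshold, in Imatinib, Ly+Imatinib, untreated and Ly lungs (x axis). Each point is 1 array. All 4 arrays with Imatinib lie above the 4 without it in each panel, and Cyp1a1 has the widest gap, 3.23 on average.

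All 4 calls rested on every array: leaving out any 1 of the 8 left 0 genes past the threshold by limma (1667 to 2678 at an unadjusted p under 0.05), with the lowest adjusted p between 0.0758 and 0.124. Background correction by normexp in place of the scanner's own left Cyp1a1 alone past it, and the difference of AK054519 was then 0.03 (limma adjusted p = 0.974).

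Genes that came next missed the threshold, and 6 of these 7 smallest p values went with a lower level. Chst4 and Miox passed with quantile normalization (limma adjusted p = 0.0260 and 0.0237) and with median scaling (limma adjusted p = 0.0338 and 0.0397). Chst4, a sulfotransferase that makes L-selectin ligands, was at -4.21 and -4.11 on Imatinib and -3.71 and -3.88 on Ly+Imatinib arrays, against -3.28 and -3.34 on untreated and -3.11 and -2.79 on Ly arrays. All Imatinib arrays were lower (difference -0.85, limma adjusted p = 0.0699). At a limma adjusted p of 0.0785 stood the phosphatase Dusp3 with -0.83, the sodium pump subunit Atp1b1 with -0.71, the tight junction protein Cldn15 with -0.71 and the inositol oxygenase Miox with -0.85. Miox was well above background on 1 Imatinib array and on 4 arrays without it. Slc5a3, which carries myo-inositol into cells, differed by -0.57 (limma adjusted p = 0.0873).

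Cstad was the one with a higher level, at 0.06 and -0.07 on Imatinib and 0.20 and 0.16 on Ly+Imatinib arrays, against -0.84 and -1.42 on untreated and -1.03 and -0.77 on Ly arrays. Its difference was 1.10 without overlap of arrays (limma adjusted p = 0.0785).

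Of 6 measured targets of the aryl hydrocarbon receptor, 2 had separate higher arrays, against 4.52% of all genes. These were Cyp1a1 and Ahrr, the receptor's repressor, and with quantile normalization or normexp only 1 member was separate. The other measured targets, Cyp1b1, Tiparp, Aldh3a1 and Nqo1, differed by 0.12, -0.09, -0.14 and 0.23 with overlapping arrays. Ahrr was at -4.53 and -4.90 on Imatinib and -4.85 and -4.78 on Ly+Imatinib arrays, against -6.04 and -5.92 on untreated and -5.09 and -5.73 on Ly arrays. It was near the floor of the measurement, well above background on 3 Imatinib arrays and 1 without. The difference of 0.93 ± 0.20 (SE) missed the threshold over the 8 arrays (limma adjusted p = 0.119) and passed it in the fit of all 24 (limma adjusted p = 0.0240). The list's median difference was 0.18, against 0.01 over all genes tested.

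The RNA of the kinases that Imatinib binds gave no call. Of 8 such kinases 7 were tested, 0 had separate arrays (2 without Imatinib 2 and 1 without Ly 1), and their median difference was 0.08. Dropping an array cannot lower that count. Kit was at 2.31 and 2.05 on Imatinib and 2.23 and 2.26 on Ly+Imatinib arrays, against 2.03 and 1.84 on untreated and 2.20 and 1.95 on Ly arrays, so the groups overlapped. Its difference of 0.21 ± 0.10 (SE) had a 95% interval of -0.03 to 0.45 (limma adjusted p = 0.415). The PDGF receptor genes lay as close: the interval of Pdgfrb was -0.15 to 0.32 around 0.08, and that of Pdgfra -0.32 to 0.57 around 0.12. Csf1r, on macrophages, had -0.05 with an interval of -0.45 to 0.35. Abl1 differed by 0.14, Ddr1 by 0.05 and Ddr2 by 0.04, and Abl2 was not tested because the probe used was well above background on 1 Imatinib array and 0 others.

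The 7 ligands of these kinases did not pass either. Pdgfa, Pdgfb, Pdgfc and Pdgfd differed by 0.08, 0.14, -0.05 and 0.33, the KIT ligand Kitl by 0.06, and the CSF1 receptor ligands Csf1 and Il34 by -0.04 and -0.26. Pdgfd had the widest difference, and untreated 1 stood low there: the levels were -0.29 and -0.32 on Imatinib and 0.15 and -0.14 on Ly+Imatinib arrays, against -1.08 and -0.19 on untreated and -0.26 and -0.40 on Ly arrays. Spp1, the matrix protein osteopontin, had -0.35 ± 0.14 (SE, limma adjusted p = 0.324).

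**Figure D2:**
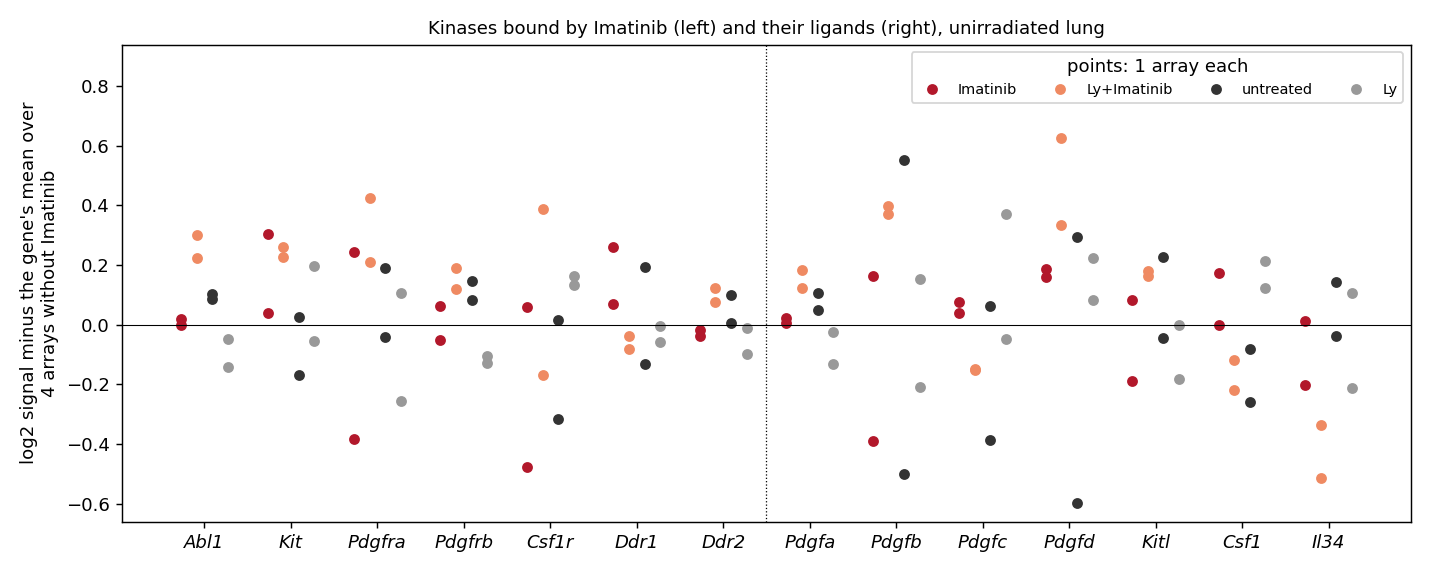
Log2 signal minus the gene's mean over the 4 arrays without Imatinib (y axis) for kinases bound by Imatinib and, right of the dotted line, their ligands. Each point is 1 array, coloured by group. The groups with and without Imatinib overlap in every gene shown, and the mean differences lie between -0.26 and 0.33.

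The heat shock genes stood lower together on Imatinib arrays, none past the threshold over the 8 arrays. These genes code for chaperones that refold proteins, and heat shock factors switch them on through repeats of the letters GAA in their promoters. In 13 of the 17 measured members all 4 Imatinib arrays were below all 4 without it, against 3.89% of all genes tested, and the list's median difference was -0.47, against 0.01. In the fit of all 24 arrays 9 of the 17 were lower, against 0.525% of genes. With normexp background correction 11 members were separate, and 13 to 15 when 1 array was left out. Leaving out an array can only keep or raise such a count, so a rise is no check on it. The share of all genes was not counted with an array left out, for this or any list below. Beyond the member of each list with the smallest p, the members named here and below were chosen after their values were seen.

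Hspb1, a small heat shock protein, was at 4.12 and 3.90 on Imatinib and 3.29 and 3.39 on Ly+Imatinib arrays, against 4.51 and 4.64 on untreated and 4.71 and 4.64 on Ly arrays. Ly+Imatinib was lowest, and no Imatinib array reached a level seen without it. The difference was -0.95 ± 0.17 (SE, limma adjusted p = 0.0960, and 0.000111 in the fit of all 24 arrays). Hspa1a, the stress-inducible Hsp70, was at 1.44 and 1.35 on Imatinib and 1.09 and 1.56 on Ly+Imatinib arrays, against 1.81 and 2.82 on untreated and 2.41 and 2.42 on Ly arrays. The groups did not overlap, and the difference of -1.003 ± 0.22 (SE) had a limma adjusted p of 0.128. Hspa1a has a near-identical copy, Hspa1b, so part of its signal may belong to that copy.

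The promoters of Hspb1 (RefSeq, GRCm38.p6, chr5:135887669-135887968, plus strand) and Hspa1a (chr17:34972107-34972406, minus strand) are shown with copies of GAANNTTC or TTCNNGAA, searched on both strands, in capitals. Such a copy was found in 9 of 13 heat shock members matched to a promoter window, or 69.2%, against 15.1% of all windows.
Hspb1: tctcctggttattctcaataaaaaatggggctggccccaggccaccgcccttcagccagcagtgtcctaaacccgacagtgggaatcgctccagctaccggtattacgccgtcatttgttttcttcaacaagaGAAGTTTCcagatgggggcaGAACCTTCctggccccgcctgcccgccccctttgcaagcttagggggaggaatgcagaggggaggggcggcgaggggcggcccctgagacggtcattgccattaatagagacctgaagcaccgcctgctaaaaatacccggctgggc
Hspa1a: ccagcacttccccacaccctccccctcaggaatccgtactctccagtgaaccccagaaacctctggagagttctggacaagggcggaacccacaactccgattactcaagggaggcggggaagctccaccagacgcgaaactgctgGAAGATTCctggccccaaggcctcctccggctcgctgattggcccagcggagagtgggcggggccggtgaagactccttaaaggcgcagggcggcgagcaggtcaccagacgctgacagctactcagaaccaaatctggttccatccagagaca
A longer run of 3 alternating units was found in 4 of the 13, or 30.8%, against 0.603% of all windows. A member was counted if any of its windows held a match, whereas the shares over all windows counted each window. The shares are thus not counted alike. A match describes these letters only and was not set against any binding data.

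Hsp90aa1, the inducible Hsp90, was at 6.03 and 6.11 on Imatinib and 5.67 and 5.72 on Ly+Imatinib arrays, against 6.45 and 6.41 on untreated and 6.26 and 6.30 on Ly arrays (difference -0.47 ± 0.08, SE, limma adjusted p = 0.0960). Hsp90ab1 differed by -0.62, the co-chaperone Stip1 by -0.73 and the mitochondrial chaperonin Hspd1 by -0.36, each with separate arrays. Hspa8, Dnajb1 and Cryab had -0.20, -0.19 and -0.09 with overlapping arrays. Further probes of these genes, well above background on all 8 arrays, gave -0.60, -0.37 and 0.15. A further probe of Bag3, also in the list, gave 0.51 against -0.20 on the probe used. The further probes of Hspa1a gave -1.16 to -0.93.

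**Figure D3:**
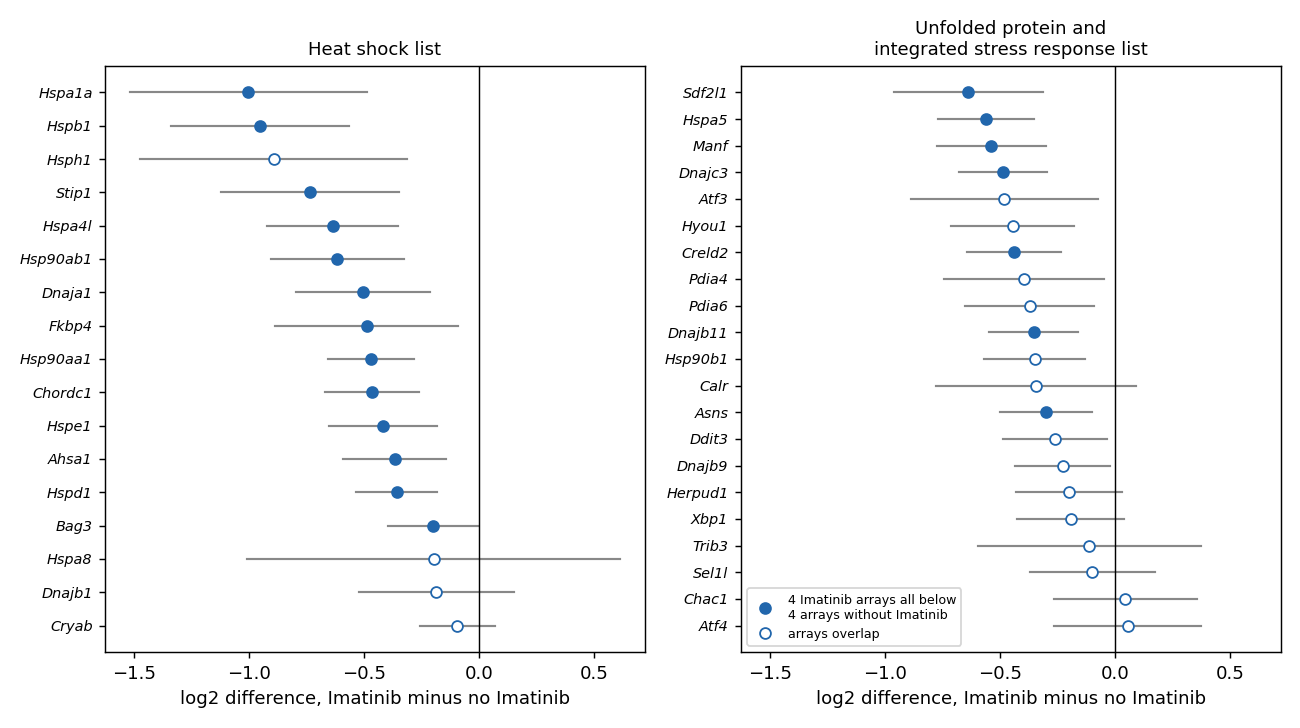
Log2 difference, Imatinib minus no Imatinib (x axis), of the heat shock genes and of the unfolded protein and integrated stress response genes, each with its 95% interval. Filled points mark genes whose 4 Imatinib arrays were all below the 4 arrays without it, 13 of 17 and 7 of 21, and open points mark overlapping arrays.

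The unfolded protein and integrated stress response list, which covers chaperones and sensors of the endoplasmic reticulum, lay in the same direction. Of 21 measured members 7 had separate lower arrays, against 3.89% of all genes, and the median difference was -0.35. Hspa5 (BiP), the main chaperone of that compartment, was at 5.06 and 4.95 on Imatinib and 4.64 and 4.74 on Ly+Imatinib arrays, against 5.41 and 5.44 on untreated and 5.43 and 5.36 on Ly arrays. The groups were apart by -0.56 ± 0.09 (SE, limma adjusted p = 0.0917). The others with separate arrays were Dnajc3, Manf, Creld2, Sdf2l1, Dnajb11 and Asns. The transcription factors Atf4 and Ddit3 had 0.06 and -0.26 with overlap, and of the 7 separate members Asns makes asparagine while the other 6 are chaperones or other proteins of the endoplasmic reticulum. Normexp gave 5 separate members. The number was 13 without Imatinib 1 and 11 without Ly 2, where dropping an array can only keep or raise it.

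Several cell type lists also differed, and in whole lung RNA fewer cells of a type and less RNA per cell cannot be told apart. B cell genes leaned higher: 6 of 23 had separate higher arrays, against 4.52% of all genes, and the median difference was 0.64. The list includes Pax5 itself. Its mean level was -0.42 and -0.60 on Imatinib and 0.28 and -0.15 on Ly+Imatinib arrays, against -0.89 and -1.21 on untreated and -0.62 and -0.39 on Ly arrays. Each Imatinib group was above its counterpart at equal presence of Ly, while Imatinib and Ly arrays overlapped. Ms4a1, which codes for CD20, and Cd79a overlapped at 0.70 and 0.70, and the plasma cell gene Jchain had -0.74. With all 8 arrays 18 members were higher at an unadjusted p under 0.05, against 8.05% of all genes. Normexp gave 4 separate members. Leaving out Ly 2 gave 13 and leaving out Imatinib 2 gave 11. A dropped array can only keep or raise these counts, and no share of all genes was counted beside them.

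Mesothelial genes, of the cells lining the pleura, leaned lower. Of 10 measured, 4 had separate arrays, against 3.89% of all genes, and the median difference was -0.49 (-0.29 without untreated 1). Wt1, the transcription factor of that layer, was at -3.83 and -4.08 on Imatinib and -3.49 and -3.73 on Ly+Imatinib arrays, against -3.06 and -2.80 on untreated and -2.81 and -2.93 on Ly arrays. The difference of -0.88 ± 0.12 (SE) came close to the threshold (limma adjusted p = 0.0873) and passed it in the fit of all 24 arrays (limma adjusted p = 0.0201). Upk3b, Msln and Lrrn4 had -0.61, -0.61 and -0.60 with separate arrays, and Krt19 had -0.18 with overlap. Markers of adjoining tissues had medians below 0 as well: adipose genes had a median of -0.46, with 11 of 12 below 0 and 2 separate, and cardiac muscle genes -0.39, with 12 of 12 below 0 and 0 separate. The mean level of the adipose list was -1.68 to 0.63 on Imatinib arrays, against 0.05 to 0.62 on arrays without, and that of the cardiac list was -2.82 to 0.86, against -2.04 to 0.96. The part of these tissues in the mesothelial result was not tested.

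Genes of the glucocorticoid response had a median of -0.52, and 2 of 14 had separate arrays, against 3.89% of all genes. Map3k6, the member with the smallest p, was at 2.44 and 1.80 on Imatinib and 1.13 and 1.42 on Ly+Imatinib arrays, against 3.55 and 3.01 on untreated and 2.78 and 2.41 on Ly arrays. One Imatinib array overlapped a Ly array by a little (difference -1.24 ± 0.19, SE, limma adjusted p = 0.0917). The feedback gene Tsc22d3 was at 3.14 and 3.40 on Imatinib and 2.74 and 3.13 on Ly+Imatinib arrays, against 4.46 and 3.64 on untreated and 3.75 and 3.35 on Ly arrays, where untreated 1 stood highest. Without Ly 2 the separate members of the list numbered 7, and without Imatinib 2 they numbered 4. These counts too can only stay or rise with fewer arrays and have no share of all genes beside them.

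Collagen and matrix genes held 4 of 36 with separate lower arrays, Eln, Lox, P4ha1 and Serpinh1, against 3.89% of all genes, and the list's median was -0.06. Lox, which cross-links collagen and elastin, was at -1.08 and -1.73 on Imatinib and -1.92 and -1.75 on Ly+Imatinib arrays, against -0.45 and -0.47 on untreated and -0.90 and -0.84 on Ly arrays. The groups did not overlap (difference -0.96 ± 0.14, SE, limma adjusted p = 0.0917). Fibroblast genes had a median of 0.05, and the homeobox gene Meox2 of that list had 0.50 ± 0.07 (SE, limma adjusted p = 0.0873). The median was 0.00 over endothelial genes. Fibroblast genes and TGF-beta ligands, receptors and response genes (median -0.07) had 1 member each with separate higher arrays, against 4.52% of all genes. Neither list had a lower one.

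Inflammatory and myeloid lists gave no calls, and their medians were below 0 with Ly and above 0 without it. Inflammatory genes had medians of -0.81 with Ly and 0.18 without, macrophage and monocyte genes -0.51 and 0.09, and genes of alternative macrophage activation -0.30 and 0.13. Neutrophil genes had a median of -0.78 but 0 of 12 with separate arrays: the median was -1.59 with Ly, where Ly 1 had the highest levels, and 0.05 without Ly. The overall median was 0.08 without Ly 1 and -1.62 without Ly 2. Without Ly 2 or without Imatinib 2, 2 members were separate. Saa3, an acute phase gene, was at -2.46 and -1.69 on Imatinib and -2.14 and -2.54 on Ly+Imatinib arrays, against -0.85 and -1.25 on untreated and 0.60 and 1.24 on Ly arrays. Ly stood high there (difference -2.14). Of 22 inflammatory genes 4 were lower and 1 higher with separate arrays, against 3.89% and 4.52% of all genes. Macrophage and monocyte genes had 0 of 23 separate and a median of -0.17, and T and NK cell genes 0 of 28 and 0.23. Proliferation genes had 1 of 29, lower, against 3.89% of all genes, and a median of 0.11. Without Ly 2, 4 T and NK cell genes and 7 proliferation genes were separate and higher. With fewer arrays such counts can only stay or rise, and the share of all genes was not counted.

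**Figure D4:**
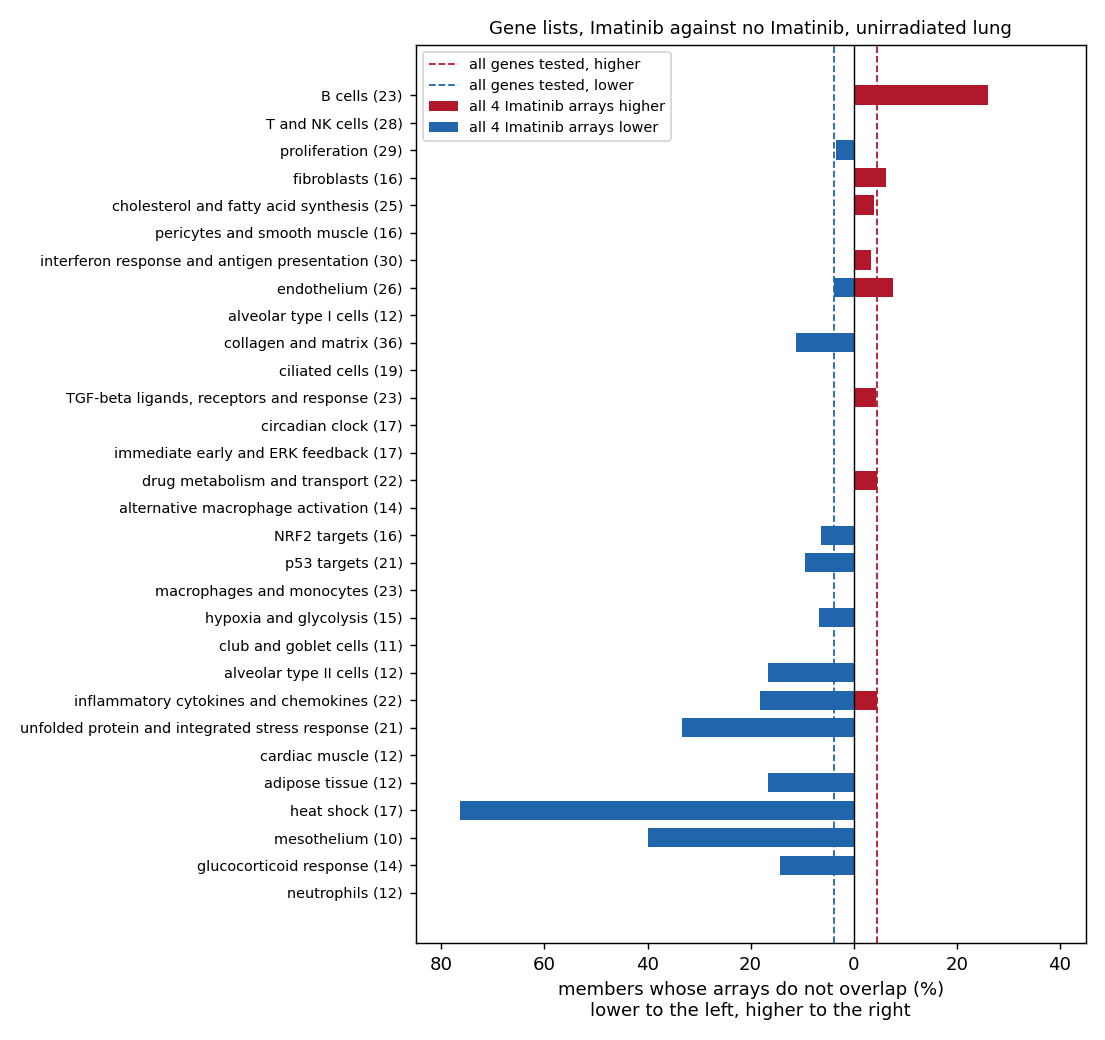
Percentage of measured members (x axis) whose 4 Imatinib arrays all lay above (right) or all below (left) the 4 arrays without Imatinib. Each gene list with 10 or more measured members is shown (number measured in brackets), and smaller lists are not. Dashed lines give the same over all genes tested, 4.52% higher and 3.89% lower. The heat shock list reaches furthest to the left.

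Whether Imatinib acted differently with Ly was asked by the difference between its effects with and without Ly. No gene passed (0 of 17912, or 0%, by limma), and 1520 (8.49%) reached an unadjusted p under 0.05. Cyp1a1 had -0.59 ± 0.57 (SE) and Hspb1 -0.77 ± 0.18 (SE, limma adjusted p = 0.235). Scaling by the median in place of the 75th percentile called 40 genes. The median difference of all genes was 0.05 in this contrast.

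Against Su, on shared slides but at other positions, 116 of 17878 genes (0.649%) were higher with Imatinib and 42 (0.235%) lower past the threshold by limma. The doses are not given in the labels, so it is unknown whether the 2 compounds were matched. Pax5 was among the higher genes: it was at -2.14, -2.18, -1.08 and -1.31 on the 4 Imatinib arrays, against -4.08 and -4.03 on Su and -3.23 and -3.83 on Ly+Su arrays. Every Imatinib array was higher, with a difference of 2.11 ± 0.15 (SE, limma adjusted p = 0.00276). Su minus no Imatinib was -0.71 for Pax5, on the same untreated and Ly arrays that served as reference for Imatinib. The furthest higher were Rab27a, a vesicle traffic GTPase, with 2.34, and Zfyve9, an anchor for SMAD proteins, with 2.17. D030028A08Rik had 1.98, and Lmnb1, the nuclear lamin B1, had 1.89. The furthest lower were Raly, an RNA-binding protein, with -2.60, and the homeobox gene Hoxd4, with -2.34. Rab5c, of early endosomes, the kinase gene Camk2a and the linker histone gene H1f4 followed with -1.90, -1.82 and -1.51. These values are differences from Su. Imatinib minus no Imatinib was 0.40 for Zfyve9, 0.30 for D030028A08Rik and 0.01 for Lmnb1. For Raly, Hoxd4, Rab5c, Camk2a and H1f4 it was -1.08, -0.89, -0.92, -0.07 and -0.80. Hoxd4 was well above background on 1 Imatinib array and on 2 arrays without Imatinib or Su.

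Rab27a was at 0.84 and 0.93 on Imatinib and 0.69 and 0.80 on Ly+Imatinib arrays, against -1.32 and -1.32 on Su and -1.71 and -1.75 on Ly+Su arrays. Untreated and Ly arrays held 0.70 to 1.36, close to Imatinib, and the Su arrays were the ones apart. Leaving out Ly+Su 1 raised the number of calls to 342, leaving out Su 2 lowered it to 43, and dropping the filter on dim probes lowered it to 63.

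Cyp1a1, Shisa2 and Hspb1 showed no difference past the threshold between Imatinib and Su. Cyp1a1 differed by 0.52, with a 95% interval of -0.23 to 1.26 (limma adjusted p = 0.413), and Su minus no Imatinib was 2.71. Shisa2 had -0.22, interval -0.53 to 0.08, and Hspb1 0.07, interval -0.13 to 0.26. The heat shock list had a median of 0.09 between Imatinib and Su, and its mean level was 3.43, 3.42, 3.16 and 3.29 on the 4 Imatinib arrays and 3.32, 3.32, 3.14 and 3.16 on the 4 Su arrays, against 3.68 to 3.96 on the 4 arrays with neither. Between Imatinib and Su the median was also near 0 for B cell genes (0.04), the stress response list (0.01) and the glucocorticoid list (-0.0004). Their medians for Su minus no Imatinib were 0.52, -0.33 and -0.43. The mesothelial list did differ in median, by -0.50, and its mean levels were 0.26 to 0.55 with Imatinib, against 0.47 to 1.12 with Su. Both compounds share their arrays without drug, and those arrays share 1 slide.

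The same contrast in irradiated lungs uses 8 other arrays, 4 with Imatinib and 4 without, and there limma called 46 of 18726 genes higher (0.246%) and 1 lower (0.00534%). Irradiation replicate 1 stood apart in brightness, with a 75th percentile of 2264. Without it the calls numbered 110, and without Irradiation+Ly+Imatinib replicate 2 they numbered 12. Irradiation+Ly+Imatinib replicate 1 had 330 spots flagged as outliers by the scanner software. The 4 irradiated arrays with Imatinib had 66.5% to 78.5% of spots well above background, against 63.7% to 65.0% on the 4 without. The negative controls of Irradiation+Ly+Imatinib replicate 2 had a median of 2.86, against 6.27 to 12.38 on the other arrays of this contrast. The part of these array differences in the calls was not tested. Here too slide and Imatinib cannot be told apart. Cyp1a1 was again separate, 4.24 ± 0.73 (SE) higher (limma adjusted p = 0.0871), and 3.82 without Irradiation replicate 1. Pax5 and Shisa2 were followed there with Irradiation replicate 1 or Irradiation+Ly+Imatinib replicate 1 left out. Pax5 then differed by 0.74 to 1.19 and Shisa2 by 0.24 to 0.65, against 1.40 and 1.06 in unirradiated lungs.

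In irradiated lungs 13 of 17 heat shock genes had separate lower arrays, against 6.47% of all genes, with a median of -0.47. The count was 16 without Irradiation replicate 1 and 13 without Irradiation+Ly+Imatinib replicate 1, and dropping an array cannot lower it. Of the stress response list 9 of 21 had separate lower arrays, with a median of -0.40. Hspb1 was at 3.34 and 3.60 on Irradiation+Imatinib and 3.31 and 3.11 on Irradiation+Ly+Imatinib arrays, against 4.06 and 4.09 on Irradiation and 3.87 and 3.87 on Irradiation+Ly arrays. B cell genes had 1 of 23 separate and higher, against 6.11%, with a median of 0.30. Mesothelial genes had 0 of 10 lower, with a median of -0.01 that was 0.20 without Irradiation replicate 1. At an unadjusted p under 0.05, 1704 genes were higher (9.1%) and 1111 lower (5.93%) in irradiated lungs. Of 17714 genes measured in both, 141 were lower in both at that level, 13.8% of the 1021 in unirradiated and 13.0% of the 1087 in irradiated lungs. Another 232 were higher in both, 16.4% of 1411 and 15.9% of 1455, and 66 reached that level in both with opposite directions.

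The difference itself between irradiated and unirradiated lungs was past the threshold in 57 of 18924 genes (0.301%), all higher, by limma, and in 28 without Irradiation+Ly replicate 2. Wt1 was among them, at 1.25 ± 0.23 (SE, limma adjusted p = 0.0475). Its levels were -3.26, -3.26, -3.06 and -3.57 with Imatinib after irradiation, against -3.51, -3.81, -3.31 and -3.98 without. Wt1 was followed for its small p in unirradiated lungs, where it was lower, and those arrays enter this difference too. The difference for Cyp1a1 was 1.01 ± 0.85 (SE), and that for Hspb1 0.32 ± 0.20 (SE). Among the largest were Mc4r, Tfap2e, Gprc5d, Olfr1093 and Smg8, of which Olfr1093 and Smg8 were well above background on 0 of the 8 unirradiated arrays. Of the 57, 31 (54.4%) were well above background on all 16 arrays, against 83.4% of genes tested. The irradiated Imatinib arrays had more spots well above background than the irradiated arrays without it, and the part of this was not tested.

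**Figure D5:**
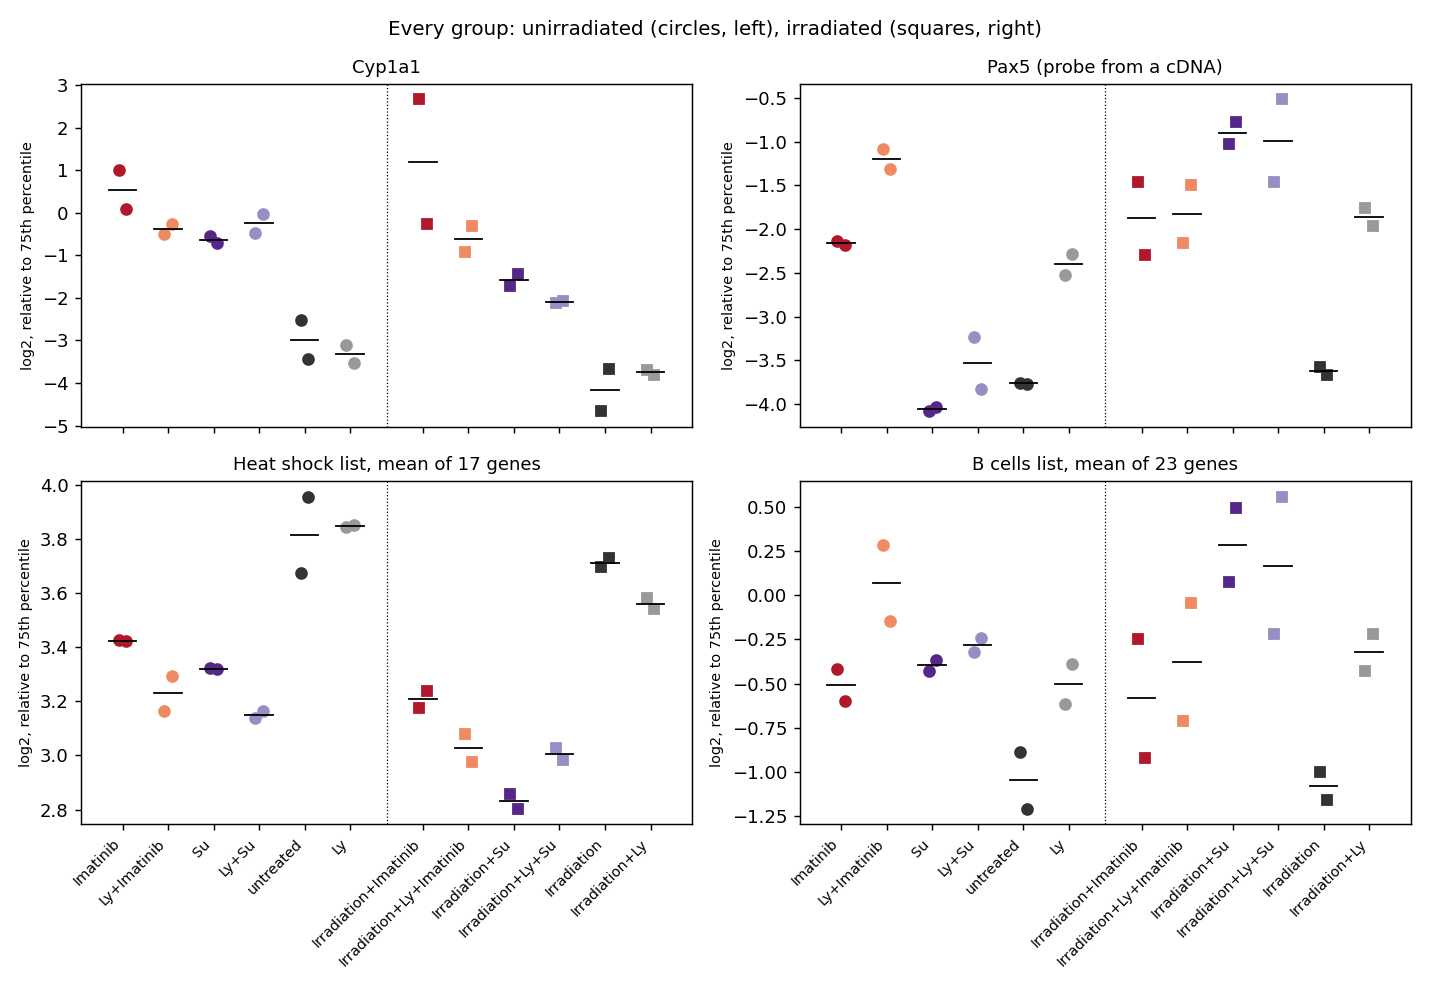
Log2 signal relative to the array's 75th percentile (y axis) in every group, with unirradiated groups as circles at left and irradiated groups as squares at right. Each point is 1 array or the mean of a list on 1 array. Imatinib and Su arrays lie above the arrays without either in Cyp1a1 and below them in the heat shock list.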

How the data were processed

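Total RNA of frozen lung was labelled with Cy3 and put on single-colour arrays, 1 per sample, per the labels' protocols. Per the file headers, the intensity values were made by Agilent Feature Extraction 9.1.3.1, which subtracted background, removed spatial trends and replaced the lowest values by a surrogate, with no scaling between arrays. A deposited table of the whole series repeats these intensities, multiplied by 1 constant per array. From there, the log2 of the processed signal minus the array's 75th percentile was taken. Control spots and outlier-flagged spots were dropped, spots of a probe averaged, and 40555 of 41174 probes kept. The probe with the highest mean over 24 arrays stood for each of 27401 genes. Probes were named through RefSeq (GRCm38.p6) by accession (22550), symbol (6572) or synonym (3068), and 8365 kept the name in the file.

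A gene was tested if well above background on both arrays of at least 1 group in the fit. Differences were tested two-sided with limma 3.58.1 in R 4.3.3 (lmFit, eBayes, Benjamini-Hochberg over all genes tested, threshold 0.05), with the presence of Ly as a term. The fits of the 8 arrays had 5 residual degrees of freedom. The number of arrays limits the precision. The scripts were tested on simulated data. Genes named in the text are the 10 with the smallest p among those with a symbol, the kinases, their ligands, Cyp1a1 and Spp1, the member of each list with the smallest p where described, and the furthest genes of the other contrasts. AK054519 and members named beyond these were chosen after their values were seen. The members, the 38 gene lists and the tests were chosen with earlier results of these data known. Replicate numbers were taken from the titles. The values of 1 gene are not reported here.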

Additional observations from a re-analysis of the deposited data

Results flagged for a closer look

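For 8 of the genes followed here the Imatinib difference in irradiated lungs exceeded that in unirradiated lungs in a test of the difference itself, 16 arrays in limma with Benjamini-Hochberg adjusted p under 0.05. Mc4r, Tfap2e, Gprc5d, Olfr1093 and Smg8 were followed because of the size of this same difference, so their passing was set by the choice. Mc4r, a melanocortin receptor, had a difference between the contrasts of 3.30 on the log2 scale (adjusted p = 0.0296). Its levels were -4.77, -4.41, -4.83 and -4.44 in irradiated lungs with Imatinib, against -6.27, -4.81, -5.70 and -6.20 in irradiated lungs without, and -5.13, -5.16, -7.16 and -6.53 in unirradiated lungs with Imatinib, against -3.97, -3.91, -3.87 and -3.53 in unirradiated lungs without. The Imatinib arrays were all lower than those without the drug in unirradiated lungs, and in irradiated lungs the 2 sets overlapped slightly.

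Tfap2e, a transcription factor gene, had 3.21 (adjusted p = 0.0450), and it stood at 3.92 to 5.37 in irradiated lungs with Imatinib, against 0.04 to 2.28 in irradiated lungs without. Gprc5d, an orphan receptor, had 3.09 (adjusted p = 0.0154), the olfactory receptor Olfr1093 had 2.99 (adjusted p = 0.00890), and Smg8, of nonsense-mediated decay, had 2.90 (adjusted p = 0.0450). Olfr1093 and Smg8 were well above background on 0 of the 8 unirradiated arrays, so the unirradiated side of each is a difference between values at background. Miox had 1.61 (adjusted p = 0.0367), Wt1 had 1.25 (adjusted p = 0.0475) and Chst4 had 1.03 (adjusted p = 0.0390). Miox, Wt1 and Chst4 were followed for their small p in unirradiated lungs, where each was lower with Imatinib. The same unirradiated arrays enter this difference, so that choice favoured a positive value. Of 52 groups of 4 arrays screened among the named genes, 0 held an array far from the other 3. The screen used levels that pool arrays with and without Ly, and some genes were chosen for a small p. Both make such an array harder to find, so this count says little.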

How the results depend on the processing

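The 4 genes that rose with Imatinib kept the sign of their difference under every alternative run in which they were measured, but that of AK054519 was 0.03 with normexp, against 1.04. The number of genes past the threshold, 4 as reported, was 10 with quantile normalization (6 higher, 4 lower), 8 with median scaling (4 higher, 4 lower), 1 with normexp background correction (spots with an extreme local background left out, chosen after seeing the data), 0 with no filter on background (lowest adjusted p 0.0846), 7 with probes above background on every array (5 higher, 2 lower), 198 in the fit of all 24 arrays, 0 with no Ly term (lowest adjusted p 0.0792) and 14 with a mean per group (6 higher, 8 lower). Leaving out 1 array gave 0 each time. A replicate block gave 5 (3 higher, 2 lower), with Pax5 at an adjusted p of 0.0542. Same-numbered arrays of 6 pairs of groups had correlated deviations of 0.0757 to 0.336, 5 of them above 0.1. The labels state no pairing and not every pair passed 0.1, so the numbers were used only as this alternative. The block gave 1 for the difference with Ly, 87 against Su and 24 in irradiated lungs.

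For the difference with Ly, 0 in the comparison as reported, quantile normalization gave 7, median scaling 40, the 24-array fit 157 and leaving out 1 array 0 to 9. Against Su, 158 as reported, no filter gave 63, every probe on its own 322 and leaving out 1 array 43 to 342. In irradiated lungs, 47 as reported, the count was 29 by quantile normalization, 26 by median scaling, 26 by normexp, 28 with no filter, 29 with every array above background, 2618 in the 24-array fit, 18 with slide as a random block and 12 to 110 leaving out 1 array. For the difference irradiated minus unirradiated, 57 as reported, quantile normalization gave 28, median scaling 20, no filter 32, every array above background 28, the 24-array fit 210, slide as a random block 14 and leaving out 1 array 28 to 82. The causes were not tested.

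Of 518 other values for 26 named genes, 445 kept direction and side of the threshold, 46 lost the call, 10 gained one and 17 turned. Those that turned were small. Median scaling gave Ddr1 -0.0117, Ddr2 -0.0271 and Kitl -0.004. Leaving out 1 array gave Pdgfra -0.0013 to 0.3038, Csf1r -0.1629 to 0.0592, Ddr1 -0.0289 to 0.1015, Ddr2 -0.0036 to 0.079, Pdgfb -0.0194 to 0.401, Pdgfc -0.189 to 0.0901, Kitl -0.0175 to 0.1558 and Csf1 -0.1358 to 0.0381. List counts were followed after seeing the data. With 1 array left out they can only stay or rise, and the share of all genes was not counted. Without Ly 2, separate glucocorticoid genes numbered 7 and separate higher proliferation genes 7, against 2 and 0 with all arrays. T and NK cell genes numbered 4 without Ly 1 and 4 without Ly 2, against 0. The mesothelial median was -0.29 without untreated 1. Signal near background limits AK054519, Ahrr, Miox and Abl2.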
